A study of Mus musculus with 4 samples.

Results

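The genes of the heterogeneous nuclear ribonucleoproteins (hnRNPs) and of the serine- and arginine-rich (SR) splicing factors were followed through RNA sequencing of mouse osteoclast precursors. These are cells of the myeloid lineage from which the multinucleated cells that resorb bone are formed. The members are all genes of the deposited count table whose symbol starts with Hnrnp or is Srsf followed by a number, without pseudogene symbols that hold -ps. This gave 31 of 53801 genes, 20 hnRNP and 11 SR genes. The cells came from 2 wild-type C57BL/6 mice and are numbered precursor cells 1 and 2; the labels give neither their age and sex nor how the cells were isolated. Cells of each number were kept for 3 h with 200 ng/ml DKK1 or with PBS (phosphate-buffered saline, the control), which gave 4 libraries, called PBS 1, DKK1 1, PBS 2 and DKK1 2. DKK1 (Dickkopf-1) is a secreted protein that blocks Wnt signals by occupying Lrp5 and Lrp6 on the receiving cell, and the design asks how gene expression differs after a short exposure to it. All libraries carry the same genotype, and the labels give only treatment and number as differences between them.

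The members encode RNA-binding proteins that coat nascent transcripts and decide, with the core spliceosome, which exons are kept. SR proteins bind exonic enhancers through RNA recognition motifs and recruit splicing components through a tail rich in arginine and serine, whereas many hnRNPs bind silencer elements and oppose exon inclusion. Both families also act in mRNA export, stability and translation, and many of their own transcripts carry exons whose inclusion sends the transcript to nonsense-mediated decay, a route by which the proteins limit their own level. The values below are counts summed over a whole gene, so they show how much RNA of a gene was sequenced and not which exons it held.

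The libraries held 41163663 to 53537927 counts, and 17462 genes passed the filter on low counts and were tested. Of the members, 30 were among them, 20 of 20 hnRNP and 10 of 11 SR genes, and the exception was Srsf12. It had 0 counts in all 4 libraries, which allows a level of up to 0.0560 to 0.0729 CPM (counts scaled to the library total, here without TMM scaling) given a floor of 3 counts per library. Csf1r and Tnfrsf11a are given here from the list of precursor and monocyte markers. They were added after their values were seen and do not by themselves establish the identity of the cells. Csf1r, the receptor for the macrophage growth factor, lay between 1968 and 2592 CPM. Tnfrsf11a, which encodes RANK, the receptor for the osteoclast factor RANKL, lay between 197 and 203 CPM. Markers of neutrophils, B cells and other blood cells were also present and differed between precursor cells 1 and 2; their values stand with the comparison of the precursor cells below.

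Hnrnpa3 (chromosome 2, 75659261 to 75669407, plus strand, GRCm38), an A/B-type hnRNP that binds single-stranded RNA and telomeric DNA repeats, shows why the sequence of a member matters for its count. The coding sequence of Hnrnpa3 has 1074 bases, and the annotation holds 34 other gene models near-identical to it. Bases 148 to 267 of the coding sequence are printed here for Hnrnpa3 and the 4 of these models with the most counts. Of the stretches of that length, it is the one in which the 4 together differ from Hnrnpa3 at most bases. Capitals mark each base that differs from Hnrnpa3.
Hnrnpa3: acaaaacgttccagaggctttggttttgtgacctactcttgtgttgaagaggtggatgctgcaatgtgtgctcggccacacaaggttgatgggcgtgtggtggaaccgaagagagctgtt
Gm5641: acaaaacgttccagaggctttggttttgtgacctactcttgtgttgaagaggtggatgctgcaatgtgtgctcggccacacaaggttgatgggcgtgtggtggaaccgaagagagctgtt
Gm11847: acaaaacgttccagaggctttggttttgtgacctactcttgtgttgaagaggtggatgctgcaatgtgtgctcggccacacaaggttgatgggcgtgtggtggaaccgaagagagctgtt
Gm5940: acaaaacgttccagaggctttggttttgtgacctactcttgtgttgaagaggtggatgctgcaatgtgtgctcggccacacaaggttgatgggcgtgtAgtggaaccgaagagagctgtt
Gm6793: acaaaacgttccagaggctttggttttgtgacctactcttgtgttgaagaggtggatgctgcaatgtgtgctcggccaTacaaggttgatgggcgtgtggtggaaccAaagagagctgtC
Gm5641 (chromosome 3, 54481438 to 54482925, plus strand) was identical to Hnrnpa3 over all 1074 coding bases. Gm5940 on chromosome X differed at 1 of 1068 aligned bases, Gm11847 on chromosome 4 at 2 of 1053 and Gm6793 on chromosome 8 at 7 of 1056. In the printed stretch Gm6793 differed at 3 bases, Gm5940 at 1 and the other models at 0, so a read that covers no position with a capital in any of the lines is the same in all 5 sequences.

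Levels were compared between genes on the authors' FPKM scale, which divides by gene length, and within a library. Hnrnpab, a CArG-box-binding relative of Hnrnpd that acts on RNA and DNA, had the highest FPKM of the members in each of the 4 libraries. It held 252 in PBS 1, 261.9 in DKK1 1, 138 in PBS 2 and 145 in DKK1 2. Hnrnpa1, the founding A/B-type hnRNP and an antagonist of SR proteins at exons, was second in each library with 113, 110.4, 62.8 and 64.8 FPKM in the same order. Srsf2 (also known as SC35), an SR protein of nuclear speckles, led its family with 91.5, 90.3, 53.9 and 55.5 FPKM. By the deposited FPKM these first places did not overlap: within every library Hnrnpab stood above Hnrnpa1 and Hnrnpa1 above Srsf2.

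Behind them the order was not fixed. Hnrnpf, which binds runs of guanines, held 79.9, 83.2, 36.3 and 60.4 FPKM in PBS 1, DKK1 1, PBS 2 and DKK1 2 and moved between rank 3 and rank 11. Srsf5 and Srsf9 followed Srsf2 among the SR genes with 40.8 to 49.2 and 37.2 to 47.8 FPKM, ranges that overlap. The other hnRNPs with high FPKM were Hnrnpa2b1, Hnrnpa0, Hnrnpm, Hnrnpul2, Hnrnpu and Hnrnpk, of which only Hnrnpa2b1 stayed within ranks 4 and 5. Hnrnpr (2.07 to 3.01 FPKM), Hnrnpa3 (1.76 to 4.72), Hnrnph3 (4.39 to 5.37) and Hnrnpll (3.98 to 5.64) had the lowest FPKM of the 30 members with counts. Hnrnpa3 kept 4.63% of the counts on itself and its near-identical models, so its place in this order is uncertain. Hnrnpf kept 53.1% and Hnrnpa1 89.2% of such sums. Over all libraries these sums were 82501 counts for Hnrnpf and 68519 for Hnrnpa1. The second place of Hnrnpa1, above Hnrnpf, is therefore uncertain as well. Srsf10 (6.48 to 9.91 FPKM) had the lowest FPKM of the SR genes. The hnRNP genes together held 0.508% of all counts in PBS 1 (95% Wilson interval 0.506 to 0.51), 0.509% in DKK1 1 (0.507 to 0.511), 0.357% in PBS 2 (0.355 to 0.358) and 0.386% in DKK1 2 (0.384 to 0.388). The SR genes held 0.151% (0.15 to 0.152), 0.142% (0.141 to 0.143), 0.106% (0.105 to 0.107) and 0.108% (0.107 to 0.109) in the same order. Both families took a larger share in precursor cells 1 than in precursor cells 2, and intervals from counts cover counting error only.

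**Figure D1:**
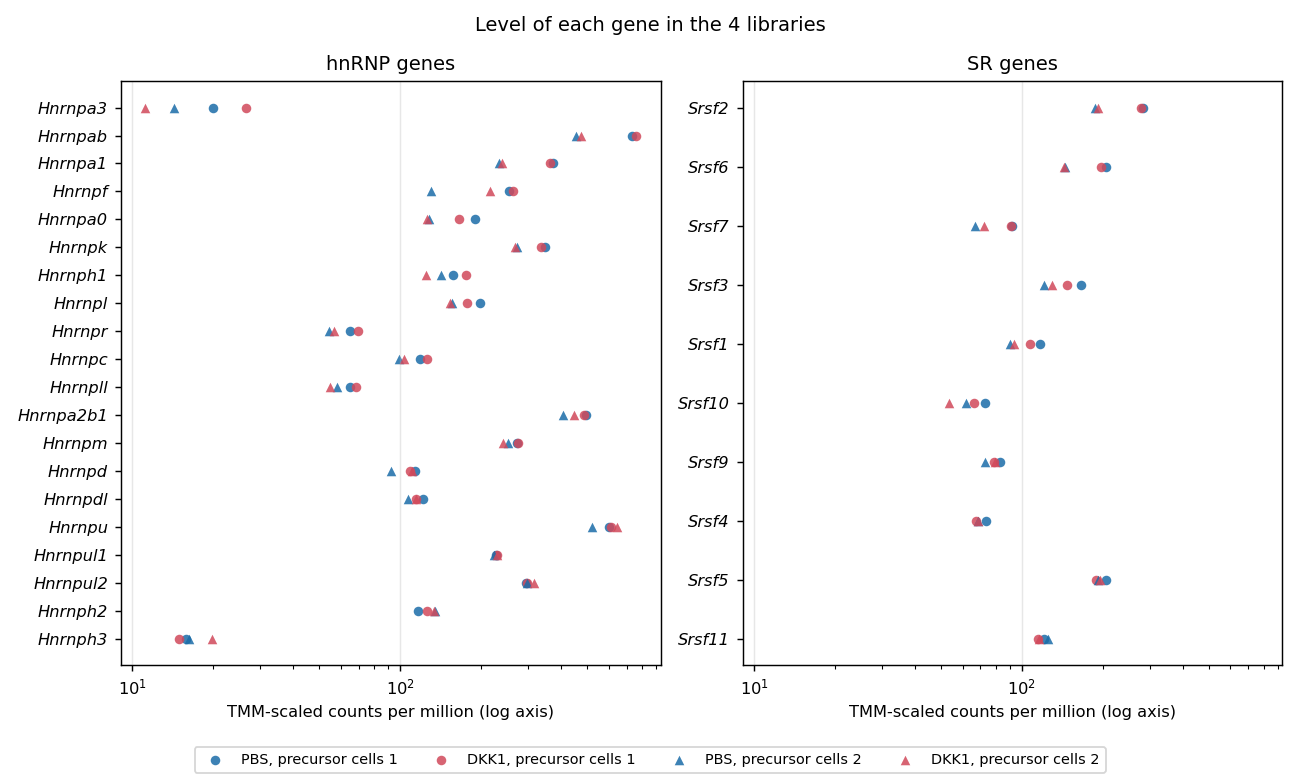
Level of each of the 30 tested members in TMM-scaled CPM on a log axis. hnRNP genes are on the left and SR genes on the right, ordered by the difference between precursor cells 2 and 1. Circles are precursor cells 1, triangles precursor cells 2, blue PBS and red DKK1; for Hnrnpab and Hnrnpa1 both triangles lie below both circles, and blue and red lie close together within a number.

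After 3 h with DKK1, 0 of the 30 members passed the test against PBS (edgeR quasi-likelihood test, Benjamini-Hochberg adjustment over all genes tested, two-sided, threshold 0.05), beside 0.0515% of all genes, 9 of 17462. DESeq2 and limma-voom also called 0 members, and 1 member, Hnrnpf, had an unadjusted p under 0.05, as had 781 of all genes tested. The median log2 change of the 30 members was 0.003, with 0.05 for the hnRNP and -0.04 for the SR genes and -0.001 over all genes. There were 15 members with a positive and 15 a negative change, and the changes ran from -0.17 (Srsf10) to 0.38 (Hnrnpf). The 95% confidence interval of a member reached 0.18 log2 units to either side at the median and 0.48 at most (Hnrnpa3). These intervals are not adjusted for the number of genes tested. A change larger than the reach of its interval could therefore also go uncalled, as that of Hnrnpf did.

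Hnrnpf (chromosome 6, 117900324 to 117925622, plus strand) had the smallest p of the members. Its counts were 14387 in PBS 1 and 15003 in DKK1 1, but 5049 in PBS 2 and 9401 in DKK1 2. This is 255 and 264 CPM in precursor cells 1 and 131 and 216 CPM in precursor cells 2 on the TMM scale. PBS 2 lay apart from the other 3 libraries, and the groups overlapped, since PBS 1 stood above DKK1 2. The log2 change was 0.38 (SE 0.15, 95% interval 0.01 to 0.76, adjusted p = 0.959, edgeR). Within the pairs the log2 difference was 0.05 for number 1 and 0.73 for number 2, so its size rests on the second pair. Summed with its 8 near-identical models the change of Hnrnpf was 0.21 (SE 0.08, adjusted p = 0.957, edgeR). Hnrnpu (scaffold attachment factor A), which binds RNA and chromatin, held 603 and 613 CPM in PBS 1 and DKK1 1 and 519 and 646 CPM in PBS 2 and DKK1 2. Both DKK1 libraries lay above both PBS libraries, and its log2 change was 0.17 (SE 0.07, 95% interval -0.01 to 0.35, adjusted p = 0.959, edgeR).

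Among the SR genes Srsf10, which represses splicing when dephosphorylated, had the smallest p, with 72.6 and 66.0 CPM in PBS 1 and DKK1 1 and 61.9 and 53.3 CPM in PBS 2 and DKK1 2. The level was lower with DKK1 in both pairs while the groups overlapped, and the log2 change was -0.17 (SE 0.07, 95% interval -0.36 to 0.01, adjusted p = 0.959, edgeR). Srsf11, an SR-related protein, held 121 and 115 CPM in PBS 1 and DKK1 1 and 125 and 116 CPM in PBS 2 and DKK1 2. Both DKK1 libraries lay below both PBS libraries, with a log2 change of -0.09 (SE 0.06, 95% interval -0.25 to 0.06). Srsf4, Srsf5 and Srsf6, which each carry a pair of RNA recognition motifs, had log2 values of -0.06, -0.04 and -0.04, with intervals of -0.25 to 0.13, -0.20 to 0.11 and -0.18 to 0.10. Srsf4 held 73.7, 67.3, 68.6 and 68.8 CPM in PBS 1, DKK1 1, PBS 2 and DKK1 2. In the same order Srsf5 held 205, 189, 192 and 196 CPM and Srsf6 206, 197.5, 145 and 143 CPM. The remaining hnRNPs with the smallest p were Hnrnpa0, which binds AU-rich elements of cytokine mRNAs, at a log2 change of -0.12 (95% interval -0.29 to 0.05), Hnrnpl and Hnrnpab. Hnrnpl, which binds CA repeats, had -0.10 (-0.25 to 0.06) and Hnrnpab 0.06 (-0.05 to 0.16). Hnrnpa0 held 190.2, 165, 128 and 126 CPM and Hnrnpl 199, 178, 156 and 153 CPM in PBS 1, DKK1 1, PBS 2 and DKK1 2. For both genes the difference lay mainly in precursor cells 1. None of the changes in this paragraph passed the test. The adjusted p (edgeR) was 0.959 for Srsf11, Hnrnpa0, Hnrnpl and Hnrnpab, 0.97 for Srsf4 and 0.972 for Srsf5 and Srsf6.

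The pairs gave little common direction. With DKK1, 7 members were higher in both pairs, all of them hnRNPs, 6 were lower in both (3 hnRNP and 3 SR genes), and 17 had opposite directions. All genes tested divided into 4409, 4565 and 8488 in the same order. Both DKK1 libraries lay above both PBS libraries for Hnrnpu, Hnrnpul1 and Hnrnpul2, and below them for Srsf11, which is 4 of 30 members beside 16.2% of all genes. Hnrnpul1 and Hnrnpul2 are relatives of Hnrnpu with roles in the DNA damage response. Hnrnpul1 held 228, 230.0, 225 and 229 CPM and Hnrnpul2 296, 299, 296 and 316 CPM in PBS 1, DKK1 1, PBS 2 and DKK1 2, and the distance between the groups was small. Of the 17 members with opposite directions, the pairs differed most for Hnrnpa3, at 19.98 CPM with PBS and 26.6 with DKK1 in precursor cells 1 and at 14.4 and 11.2 CPM in precursor cells 2. Hnrnph1, which binds runs of guanines like Hnrnpf, had 158 and 176 CPM in precursor cells 1 and 142 and 125 CPM in precursor cells 2. Hnrnph3, Hnrnpd and Srsf3 had lower values with DKK1 in the first pair and higher ones in the second. An exact permutation test of 2 libraries against 2 that ignores the pairs cannot give a two-sided p under 0.333. Keeping the pairs leaves fewer arrangements still.

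**Figure D2:**
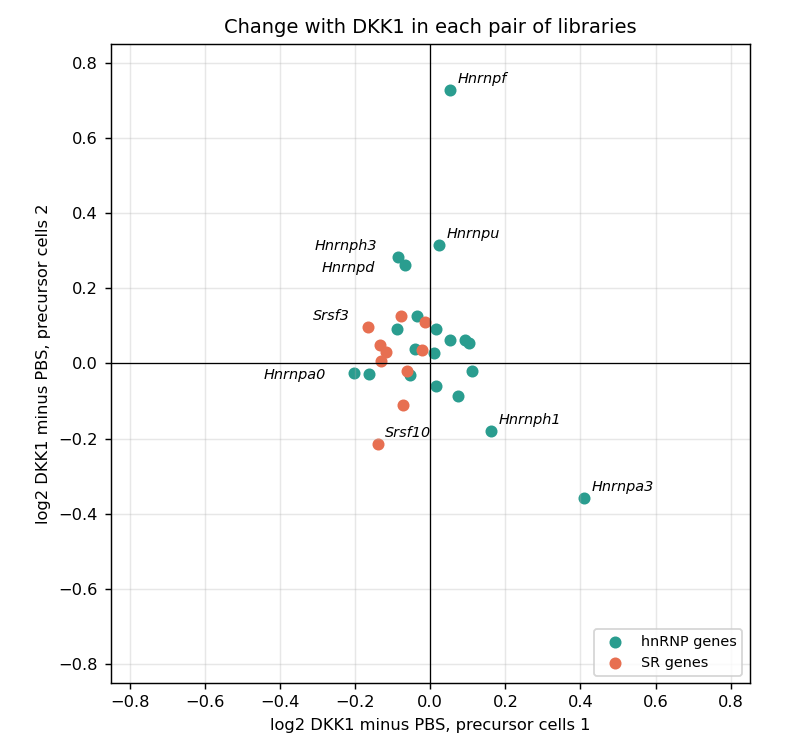
Log2 difference DKK1 minus PBS in precursor cells 1 (horizontal) against precursor cells 2 (vertical) for the 30 tested members. Green points are hnRNP and orange points SR genes. Hnrnpf stands high in precursor cells 2 alone and Hnrnpa3 has opposite signs, while 17 members lie in the quadrants of opposite direction.

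The authors' deposited tables compare 1 DKK1 library with 1 PBS library within each number, by a test that is not stated, and list the same 30 members. In the authors' deposited table for precursor cells 1, 2 of 30 members had a false discovery rate under 0.05 beside 19% of the genes listed. In that authors' deposited table these were Hnrnpa3 with a log2 ratio of 0.41 and Hnrnpa0 with -0.20. In the authors' deposited table for precursor cells 2 there were 6 of 30 beside 16.7%. The ratios of that authors' deposited table put Hnrnpf at 0.73, Hnrnpu at 0.32, Hnrnph3 at 0.29 and Hnrnpd at 0.27 above 0 and Hnrnpa3 at -0.34 and Srsf10 at -0.21 below. Hnrnpa3 is the member on both lists of the authors' deposited tables, and its ratio had opposite signs. The authors' deposited tables mark 0 members as changed in either pair, beside 0.921% and 0.987% of the genes listed.

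The members stood lower in precursor cells 2 than in precursor cells 1. Of the 30 members, 17 were lower in precursor cells 2 and 0 were higher (edgeR, adjusted p under 0.05), beside 15.9% lower and 17.9% higher of all genes. They were 11 of 20 hnRNP and 6 of 10 SR genes, and 26 of the 30 log2 changes were negative. The median log2 change was -0.27 over the members and -0.003 over all genes, and it was -0.26 between the PBS libraries and -0.20 between the DKK1 libraries. The median SE was 0.071 for the members and 0.16 for all genes, so smaller changes could be called in members than in a typical gene. Both libraries of precursor cells 2 lay below both of precursor cells 1 for 20 members, beside 35.3% of all genes. They lay above both of precursor cells 1 for 2 members, Hnrnph2 and Hnrnph3, beside 5889 of all 17462 genes. No preparation was repeated, so the test compares these 2 preparations, with a spread taken from how the pairs differ; mouse, preparation and any handling of that number cannot be told apart. DESeq2 called 12 and limma-voom 17 members lower, and edgeR 8 with no filter on low counts. With 1 library left out no term for treatment could be kept, and the count was 11, 10, 5 and 8 without PBS 1, DKK1 1, PBS 2 and DKK1 2, while 0 members were higher in each of these fits. Hnrnpa1, Hnrnpab, Hnrnpk, Srsf2 and Srsf6 were called in every fit that was run, 5 of the 17.

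**Figure D3:**
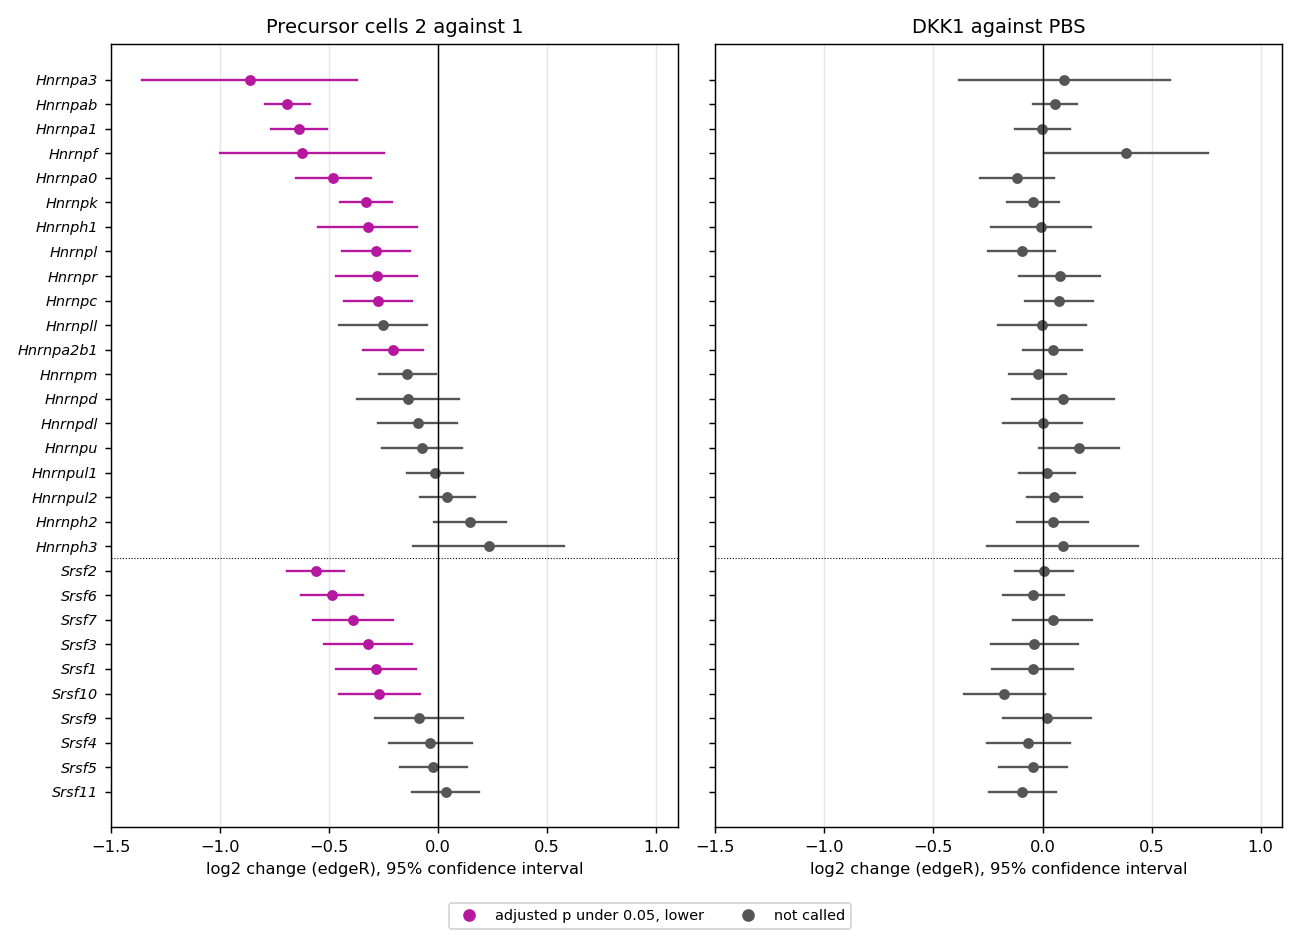
Log2 change of each tested member with its 95% confidence interval from edgeR. Precursor cells 2 against 1 are on the left and DKK1 against PBS on the right, with hnRNP genes above and SR genes below the dotted line. Purple marks the 17 members lower at an adjusted p under 0.05, all on the left; on the right no member is called.

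Hnrnpab (chromosome 11, 51600100 to 51606847, minus strand) had the smallest p, with 733 and 759 CPM in PBS 1 and DKK1 1 and 453 and 472 CPM in PBS 2 and DKK1 2. Precursor cells 1 and 2 did not overlap and treatment made little difference within either, and the level was 1.61-fold lower in precursor cells 2 (log2 change -0.69, SE 0.04, adjusted p = 0.000145, edgeR). Hnrnpa1 (chromosome 15, 103240432 to 103246692, plus strand) held 373 and 363 CPM against 233 and 239.9 CPM, with the same separation, and was 1.55-fold lower (log2 change -0.64, SE 0.05, adjusted p = 0.000459). Hnrnpa0 fell from 190.2 and 165 CPM to 128 and 126 CPM (log2 change -0.48, SE 0.07, adjusted p = 0.00402). That call was lost without PBS 2 or DKK1 2 (adjusted p = 0.0609 and 0.0732). Hnrnpk, which binds runs of cytosines in RNA and DNA, fell from 347 and 334 CPM to 274 and 268 CPM (log2 change -0.33, SE 0.05, adjusted p = 0.00451). Another A/B-type hnRNP, Hnrnpa2b1, which takes part in RNA transport, had a smaller change, from 495 and 484 CPM to 407 and 444 CPM (log2 change -0.20, SE 0.06, adjusted p = 0.0365). Its call was lost without PBS 1, DKK1 1 or PBS 2 (adjusted p = 0.118, 0.0764 and 0.165), by DESeq2 (0.063) and with no filter (0.101). All levels here were measured in bulk RNA, where fewer cells of a type and less RNA per cell cannot be told apart.

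Hnrnpc, which binds uridine tracts, held 119 and 127 CPM against 99.3 and 104 CPM (log2 change -0.27, SE 0.06, adjusted p = 0.0212). Hnrnpl held 199 and 178 CPM against 156 and 153 CPM (-0.28, SE 0.06, adjusted p = 0.0186). Hnrnpr, a relative of Syncrip that binds mRNA in axons, held 65.0 and 69.7 CPM against 54.4 and 56.4 CPM (-0.28, SE 0.07, adjusted p = 0.0345). In these 3 genes both libraries of precursor cells 2 were below both of precursor cells 1, by about the same step. Hnrnph1 held 158 and 176 CPM against 142 and 125 CPM (-0.32, SE 0.09, adjusted p = 0.0433), with a wider spread within each number. Hnrnpf held 255 and 264 CPM against 131 and 216 CPM (-0.62, SE 0.15, adjusted p = 0.0263). The size of its difference rests on PBS 2, without which it was -0.26 (adjusted p = 0.0712), and it was -0.96 between the PBS and -0.29 between the DKK1 libraries. The same gene was also not called without PBS 1 (adjusted p = 0.164), without DKK1 1 (0.19), by DESeq2 (0.163), with no filter (0.131) or without the replicate block (0.0764). Without PBS 2 the adjusted p of Hnrnpc, Hnrnpl, Hnrnpr and Hnrnph1 was 0.127, 0.118, 0.149 and 0.0686, and without DKK1 2 it was 0.0847, 0.142, 0.107 and 0.189. Without DKK1 1 it was 0.0962 for Hnrnpc, 0.133 for Hnrnpr and 0.133 for Hnrnph1, and without PBS 1 it was 0.0907 for Hnrnpl. With no filter it was 0.0592 for Hnrnpl, 0.065 for Hnrnpr and 0.134 for Hnrnph1, and by DESeq2 it was 0.101 for Hnrnpr. All log2 changes of these 4 genes stayed negative in these fits.

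Among the SR genes Srsf2 (chromosome 11, 116849901 to 116853094, minus strand) held 283 and 278 CPM in precursor cells 1 against 188 and 193 CPM in precursor cells 2. It was 1.48-fold lower with no overlap (log2 change -0.56, SE 0.05, adjusted p = 0.00085, edgeR). Srsf6, which binds exonic enhancers of Mapt and other genes, held 206 and 197.5 CPM against 145 and 143 CPM (-0.49, SE 0.06, adjusted p = 0.00186, edgeR). Srsf7, which contains a zinc knuckle, held 91.7 and 90.9 CPM against 67.0 and 72.4 CPM (-0.39, SE 0.07, adjusted p = 0.0107). These genes kept their treatment pairs close together and their preparations apart. Srsf3, the smallest SR protein and an adaptor for mRNA export, held 166 and 147 CPM against 121 and 129 CPM (-0.32, SE 0.08, adjusted p = 0.0289). Srsf1 (also SF2/ASF), which couples splicing to export and decay, held 117 and 107 CPM against 90.3 and 93.4 CPM (-0.28, SE 0.07, adjusted p = 0.0335). Srsf10 held 72.6 and 66.0 CPM against 61.9 and 53.3 CPM (-0.27, SE 0.08, adjusted p = 0.0402). Without PBS 2 the adjusted p of Srsf1, Srsf3, Srsf7 and Srsf10 was 0.141, 0.145, 0.0575 and 0.0846. The calls of Srsf1, Srsf3 and Srsf10 were also lost without PBS 1 (0.112, 0.0892 and 0.282) and without DKK1 2 (0.106, 0.0889 and 0.307), and that of Srsf10 without DKK1 1 (0.0924). With no filter the adjusted p of these 3 genes was 0.0884, 0.0995 and 0.073. DESeq2 did not call Srsf1 (0.0556) or Srsf10 (0.119), and Srsf10 was not called without the replicate block (0.0799).

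The 13 members that did not pass the test between the precursor cells had log2 changes from -0.25 to 0.23. Hnrnpll, which regulates splicing of the leukocyte phosphatase Ptprc, had -0.25 (adjusted p = 0.0635), and Hnrnpm, which binds GU-rich sequences, had -0.14 (adjusted p = 0.0947, edgeR). Hnrnpd, also AUF1, which promotes decay of mRNAs with AU-rich elements, had -0.14 and its relative Hnrnpdl -0.09. Srsf9 had -0.09, Hnrnpu -0.07, Srsf4 -0.04, Srsf5 -0.02 and Hnrnpul1 -0.01, with 95% intervals that reached -0.29 to 0.11, -0.25 to 0.11, -0.23 to 0.15, -0.18 to 0.13 and -0.14 to 0.11. Hnrnpul2 (0.04), Srsf11 (0.03), Hnrnph2 (0.15) and Hnrnph3 (0.23) were the 4 members with positive values. Hnrnph2 lies on chromosome X and held 117 and 126 CPM against 135 and 133 CPM. Both libraries of precursor cells 2 lay above both of precursor cells 1, with an adjusted p of 0.15, where its paralog Hnrnph1 had the opposite order.

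Markers of other cells moved with the difference between the precursor cells, and their part in it was not tested. The 8 cycling-cell markers were lower in precursor cells 2 in 8 of 8 cases, with a median log2 change of -0.98. Their summed level was 1108 and 1173 CPM in precursor cells 1 against 639 and 638 CPM in precursor cells 2. Pcna and Mki67, the most abundant, went from 346 and 300.4 CPM in PBS 1 to 221 and 178 CPM in PBS 2. The 8 neutrophil markers were higher in 8 of 8 cases, at 5269.6 and 5132 CPM against 9639.5 and 9761 CPM in sum, led by Ngp and S100a9. The 8 B cell markers were lower in 8 of 8 cases, at 188 and 121 CPM against 28.1 and 28.6 CPM, in sum. Igll1 and Vpreb1 were at 0 in precursor cells 2, and Cd79a and Cd79b were the most abundant. Of the 5 erythroid markers tested 4 were higher, led by Hba-a1 and Hbb-bs, at 96.1 and 67.1 CPM against 143 and 112 CPM in sum. Of 7 stromal markers 2 were higher, and the list, led by Col1a1 and Col1a2, summed to 64.6 and 78.1 CPM against 91.6 and 93.7 CPM. The T and NK cell markers, led by Nkg7 and Cd247, summed to 15.4 to 19.7 CPM with 0 of 6 called. The markers of precursors and monocytes, 11 gene models, were higher in 5 and lower in 2 cases and summed to 31579 and 31425 CPM against 24750 and 24906 CPM. Lyz2, the most abundant, held 24897 and 24765 CPM against 14281 and 14679 CPM. Ly6c2, which marks inflammatory monocytes, held 277 and 266 CPM against 1984 and 1900 CPM. No marker list was at 0 as a whole in any library.

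Genes that work with the members were described in 5 lists. The first held core proteins of the U1, U2, U4, U5 and U6 small nuclear ribonucleoproteins, which carry out splice-site pairing and catalysis. Of these 37 genes, 16 were lower and 1 was higher in precursor cells 2 (edgeR, adjusted p under 0.05). Over all genes tested 15.9% were lower and 17.9% higher, and the counts of every list here are to be read beside these shares. The 37 genes had a median log2 change of -0.28. Examples are Sf3b3 (-0.45), Snrpa1 (-0.76), Snrpd3 (-0.59) and Snrpg (-0.80), while the helicase gene Snrnp200 was higher (0.20). Splice-site recognition and SR-related genes divided into 4 lower and 3 higher of 29, with Tra2b at -0.36 and Luc7l at -0.35 but Luc7l3 at 0.57 and Ppig at 0.56, and a median of 0.002. The kinases, phosphatases, methyltransferases and importins that act on SR and hnRNP proteins divided into 8 lower and 4 higher of 23. Prmt1 and Prmt5, which methylate arginines, had -0.70 and -0.58. The muscle SR kinase gene Srpk3 had -4.67 at 4.58 CPM or less, and Tnpo1, the importin of Hnrnpa1, had 0.62. Other RNA-binding regulators of splicing were lower in 9 and higher in 4 of 40 gene models. Examples were Syncrip at -0.85, Ybx1 at -0.54 and Ptbp1 at -0.41. Of the 2 models named Raver1, 1 was called at -2.32, with 29.3, 7.36, 4.50 and 2.39 CPM in PBS 1, DKK1 1, PBS 2 and DKK1 2. The other held more, at 62.9, 111, 123 and 121 CPM, and had 0.54 (adjusted p = 0.0816, edgeR), so the models had opposite signs and no direction is given for Raver1 as a gene. Genes of nonsense-mediated decay and the exon junction complex were lower in 2 and higher in 5 of 17. Etf1 at -0.44 and Gspt1 at -0.41 end translation, and the genes with positive values included Upf2 at 0.36. With DKK1, 0 genes of these lists were called by edgeR, beside 9 of all 17462 genes tested. An unadjusted p under 0.05 (edgeR) was found for 5 of 146, beside 781 of the 17462. DESeq2 called 1, beside 46 of all genes, and limma-voom 0, beside 2. The smallest p of each list belonged to Snrnp70 (log2 change -0.13), U2af2 (-0.13), Ppp1cc (0.24), 1 Raver1 model (-1.74, adjusted p = 0.27, where the other model had 0.39) and Smg1 (0.09). Next were Snrpb2 (0.19), Luc7l3 (0.15), Srpk3 (-0.86), Esrp2 (1.49) and Smg5 (-0.09).

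**Figure D4:**
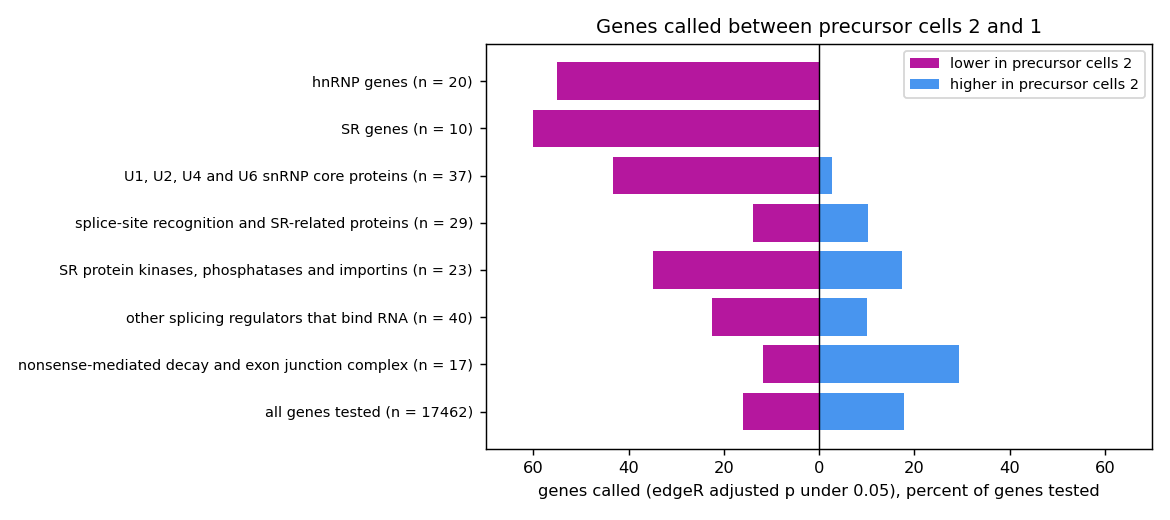
Percent of tested genes called lower (purple, drawn to the left) or higher (blue, drawn to the right) in precursor cells 2 than in 1. Bars stand for the hnRNP genes, the SR genes, 5 lists of partner genes and all genes tested, with the number tested beside each name. The list drawn as U1, U2, U4 and U6 core proteins also holds U5 proteins. The hnRNP and SR bars have no part on the right, and the bar of all genes has 15.9% on the left and 17.9% on the right.

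Near-identical gene models took part of the counts that may belong to members. Hnrnpa3 itself held 1129 counts in PBS 1, 1508 in DKK1 1, 556 in PBS 2 and 487 in DKK1 2. In the same order 23853, 24019, 12757 and 15245 lay on its 34 near-identical models. The gene thus kept 4.52% (95% Wilson interval 4.27 to 4.78), 5.91% (5.63 to 6.2), 4.18% (3.85 to 4.53) and 3.1% (2.84 to 3.38) of the sum. Gm5641, whose coding bases are the same, held 7026, 7076, 3651 and 4538 counts, more than Hnrnpa3 in every library. Hnrnpa3 alone was lower in precursor cells 2 by a log2 change of -0.86 (SE 0.20, adjusted p = 0.0212), and summed with its models by -0.34 (SE 0.05, adjusted p = 0.00349, edgeR). The opposite directions of Hnrnpa3 with DKK1 stand beside a change of 0.05 (SE 0.05, adjusted p = 0.968, edgeR) in the sum. The values of Hnrnpa3 alone are therefore uncertain, and the call of Hnrnpa3 by itself was lost without DKK1 1, PBS 2 or DKK1 2 (adjusted p = 0.0512, 0.0642 and 0.143) and with no filter (0.104).

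Hnrnpf kept 54.5% (95% Wilson interval 53.9 to 55.1), 54.8% (54.2 to 55.3), 43.2% (42.3 to 44.1) and 55.3% (54.6 to 56.1) of the counts on itself and 8 near-identical models. The share was lowest in PBS 2, the library in which Hnrnpf was lowest, while the models together held 12018, 12399, 6647 and 7597 counts in the same order. Summed with them Hnrnpf was lower in precursor cells 2 by a log2 change of -0.47 (SE 0.08, adjusted p = 0.00844, edgeR). Hnrnpk kept 84.8% of its sum with 2 models and Hnrnpa1 89.2% of its sum with 11. Both were lower in precursor cells 2 in the sum as well, with log2 changes of -0.37 and -0.65. Srsf5 and Srsf3 kept 94.8% and 95.4%.

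**Figure D5:**
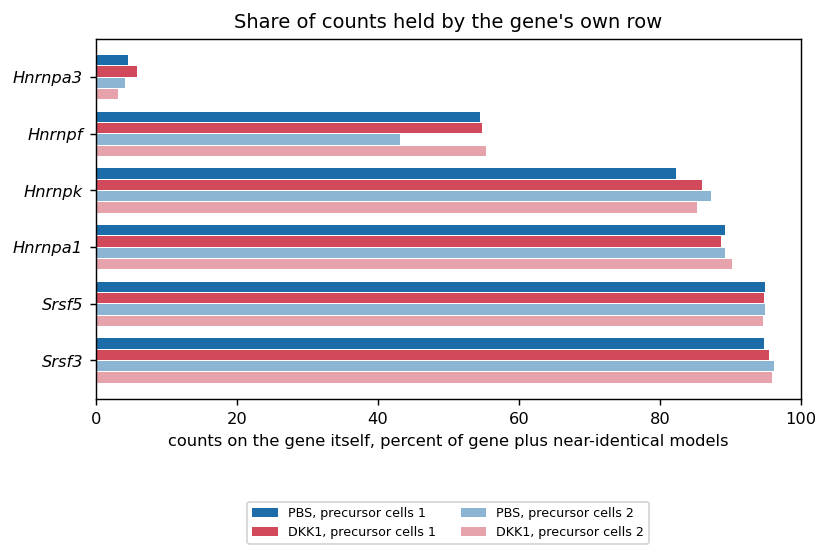
Percent of counts that lie on the member itself, out of the member plus its near-identical gene models, with 1 bar per library. The 6 members whose models held most counts are drawn. Hnrnpa3 keeps 3.1% to 5.91%, Hnrnpf 43.2% to 55.3%, and the other 4 genes 82.2% or more in every library.

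Exons of 14 members overlap exons of other genes, and nothing in the labels says whether the libraries kept strand, so reads there cannot be assigned with certainty. For 7 of the 14 the member held under 90% of the counts of itself and its neighbour. Srsf4 shares 1532 bases with Gm12992 on the opposite strand. This model had 2466 counts in PBS 1, 2420 in DKK1 1, 19 in PBS 2 and 1603 in DKK1 2, so PBS 2 stood far below the other libraries at this model. Summed with Gm12992, Srsf4 had a log2 change of 0.25 (SE 0.16) with DKK1, against -0.06 alone, and of -0.40 (adjusted p = 0.112, edgeR) between the precursor cells, against -0.04 alone. Srsf2 held 68.8% of the counts of itself, Mfsd11 and Mettl23, and its difference between the precursor cells was -0.51 in that sum. Hnrnpab held 89.6% of the counts with Phykpl (sum -0.68), Hnrnpm 84.1% with March2 (sum -0.12) and Hnrnph3 58.8% with Rufy2, where the sum had 0.07 in place of 0.23. Hnrnpd held 89.8% with Gm17092, and Hnrnpf 82.5% with the models 4933440N22Rik and Gm43863.

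The promoters of the members were read from RefSeq (GRCm38.p6), 250 bases before to 50 after the start of each gene, with 1 promoter for each of 29 of the 31 members. They are described by their letters alone, and whether these bear on the difference between the precursor cells was not tested. With these results already known, 6 motifs were searched on both strands, CACGTG (E-box), CCAAT, the NRF1 element, CCGGAAG (ETS), TATAAA and GGGCGG (SP1). The promoters of the 3 called members with the smallest p, of Hnrnpul1 and of Srsf5, for which the difference between the precursor cells was near 0, are printed 5′ to 3′ on the gene's strand. Capitals mark CCAAT, or ATTGG where it lies on the other strand. Hnrnpab is at chr11:51606832-51607131 (minus strand), Hnrnpa1 at chr15:103240147-103240446 (plus), Srsf2 at chr11:116853045-116853344 (minus), Hnrnpul1 at chr7:25754710-25755009 (minus) and Srsf5 at chr12:80945249-80945548 (plus).
Hnrnpab: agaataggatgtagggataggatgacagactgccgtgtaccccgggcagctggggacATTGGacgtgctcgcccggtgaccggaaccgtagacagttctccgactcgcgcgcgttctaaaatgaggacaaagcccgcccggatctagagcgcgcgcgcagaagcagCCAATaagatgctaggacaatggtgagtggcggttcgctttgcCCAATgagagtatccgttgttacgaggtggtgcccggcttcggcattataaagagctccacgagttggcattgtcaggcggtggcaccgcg
Hnrnpa1: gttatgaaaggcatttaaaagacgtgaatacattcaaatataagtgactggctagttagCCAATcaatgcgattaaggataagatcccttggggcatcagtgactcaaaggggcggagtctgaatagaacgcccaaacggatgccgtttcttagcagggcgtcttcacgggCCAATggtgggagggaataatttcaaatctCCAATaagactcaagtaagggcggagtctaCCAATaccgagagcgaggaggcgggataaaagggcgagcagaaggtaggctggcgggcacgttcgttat
Srsf2: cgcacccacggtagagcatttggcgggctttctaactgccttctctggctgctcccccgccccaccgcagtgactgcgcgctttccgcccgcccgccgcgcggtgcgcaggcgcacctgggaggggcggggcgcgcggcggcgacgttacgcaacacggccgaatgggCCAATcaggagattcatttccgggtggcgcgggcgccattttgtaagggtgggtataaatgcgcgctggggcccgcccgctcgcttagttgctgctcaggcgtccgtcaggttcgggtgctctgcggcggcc
Hnrnpul1: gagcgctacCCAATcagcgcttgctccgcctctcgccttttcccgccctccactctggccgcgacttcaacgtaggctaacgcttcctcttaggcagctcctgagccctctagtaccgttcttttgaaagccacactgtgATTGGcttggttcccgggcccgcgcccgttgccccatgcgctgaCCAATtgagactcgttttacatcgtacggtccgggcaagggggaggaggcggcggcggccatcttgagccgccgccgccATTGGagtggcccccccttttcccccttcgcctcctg
Srsf5: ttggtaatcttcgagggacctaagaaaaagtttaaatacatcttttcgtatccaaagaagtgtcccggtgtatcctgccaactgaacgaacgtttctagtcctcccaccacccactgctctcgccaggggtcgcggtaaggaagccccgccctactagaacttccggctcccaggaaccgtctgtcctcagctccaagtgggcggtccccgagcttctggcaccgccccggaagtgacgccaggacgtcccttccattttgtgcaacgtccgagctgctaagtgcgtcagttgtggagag
The Hnrnpab promoter held CCAAT 3 times, Hnrnpa1 4 times, Srsf2 1 time, Hnrnpul1 4 times and Srsf5 0 times. Among the members, 14 of the 17 called lower in precursor cells 2 held it (82.4%, the exceptions being Hnrnpf, Srsf6 and Srsf7). Of 11 tested members that were not called, 2 held it (18.2%, Hnrnph2 and Hnrnpul1). Hnrnpll and Hnrnpul2, also not called, had no promoter here. By family, 12 of 18 hnRNP and 4 of 11 SR promoters held CCAAT. It stood in 38.7% of the promoters of all genes tested and in 38.0% of all 27025 promoters. Over all genes the share was 42.5% for those lower in precursor cells 2, 36.8% for those higher and 38.3% for those not called. The member sets hold only 17 and 11 promoters, and shares of such small sets vary more by themselves. Of the 17 calls that divide the members, 5 held in every fit. GGGCGG stood in 12 of 17 and 10 of 11 member promoters, CCGGAAG in 2 and 4, CACGTG in 1 and 3, the NRF1 element in 1 and 2, and TATAAA in 3 and 1. These are descriptions of letters in a window and were not tested. The motifs were chosen with the calls known, so the division of the members by CCAAT is no independent support for a shared element.

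In the annotation (GENCODE M21, GRCm38), 9 of 11 SR genes (81.8%) and 10 of 20 hnRNP genes (50%) have at least 1 transcript marked for nonsense-mediated decay, beside 28.1% of 13254 protein-coding genes tested. Transcripts with a retained intron were annotated for 22 of 31 members (71.0%), beside 57.3% of the same protein-coding genes. Counts of such transcripts and of coding ones cannot be told apart here, since the deposited table sums them. The median number of annotated transcripts per gene was 8 for hnRNP genes and 7 for SR genes. It was 5 for the protein-coding genes tested, and the shares above were not adjusted for this. The members lie on 16 chromosomes, and 4 pairs lie near each other. Hnrnpa0 and Hnrnpk, 263 kb apart on chromosome 13, were both called lower, as were Srsf10 and Hnrnpr, 441 kb apart on chromosome 4. Hnrnpll and Srsf7, 138 kb apart on chromosome 17, had log2 changes of -0.25 and -0.39, of which only Srsf7 passed the test. Hnrnpd and Hnrnpdl, 54.6 kb apart on chromosome 5, had -0.14 and -0.09 and did not.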

How the data were processed

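RNA was sequenced in 4 libraries, a PBS and a DKK1 library from each of 2 mice. The deposited table of raw counts has whole numbers per gene. The submitters' processing notes name fastp, HISAT2 and mm10; the program that counted and its gene models are not given in the sources here. For each pair a second deposited table holds, per its file header, FPKM values that the authors scaled to gene length and depth, a log2 ratio of DKK1 over PBS, and p-value and false discovery rate columns. The members and lists, and the motifs, were chosen with earlier results of these data known. A count was found for 26361 of 53801 genes, and filterByExpr kept 17462 (minimum count 10, total 15), with 99.9% of counts. The model was edgeR 4.0.16 quasi-likelihood in R 4.3.3 with TMM scaling and terms for precursor cells and treatment (1 residual degree of freedom). Adjustment was Benjamini-Hochberg over all genes tested, with a threshold of 0.05. The code was also run on simulated counts with the same dispersion for every gene. That run does not show how the model performs on these data. Same-numbered libraries deviated together across genes (r = 0.87; principal component 1, 87.8% of the variance), and the labels name 2 mice, so the number was the block. CPM values are TMM-scaled, except the floor for Srsf12; pair differences use a prior count of 2. Alternatives used upper-quartile and RLE scaling, no filter, no block, DESeq2 1.42.0, limma-voom (limma 3.58.1), each library left out, and counts summed with near-identical (BLAST 2.17.0; identity of 95% or more, aligned over 100 bases or more and covering 50% of the shorter transcript) or exon-sharing models. Every member is named. Values by library, change and adjusted p are given for called members, or for the 5 of a family with the smallest p, and 3 members per family by FPKM; of each list, up to 4 called genes or the 2 with the smallest p, and of marker lists the 2 most abundant. A gene that this rule named is not reported here. Snrnp200, Csf1r, Tnfrsf11a, Ly6c2, Igll1, Vpreb1, the near-identical and exon-sharing models named and the promoters of Hnrnpul1 and Srsf5 were added after their values were seen. Sequences are from RefSeq (promoters) and GENCODE M21 transcripts, whose IDs matched all 31 members.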

Additional observations from a re-analysis of the deposited data

How the results depend on the processing

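Under every alternative that was run, 0 members were called with DKK1 and 0 were called higher in precursor cells 2. The number of members called lower in precursor cells 2 was 17 in the model described, 8 with no filter on low counts, where more genes were tested, and 5 to 11 when 1 library was left out; it was 12 by DESeq2, 19 with upper-quartile scaling and 17 by limma-voom and with RLE size factors. Without the replicate block it was 16, of which 15 were among the 17, with Hnrnpf and Srsf10 lost and Hnrnpll gained; that fit called 0 of all genes with DKK1 in place of 9. Leave-one-out fits have no block, so their changes with DKK1 also hold the difference between the precursor cells and do not show what 1 library contributes. The median log2 change between the precursor cells was -0.32 with upper-quartile scaling, which moved the median of all genes to -0.05. Without PBS 1, DKK1 1, PBS 2 and DKK1 2 this median of the members was -0.21, -0.23, -0.26 and -0.28. In the same order their median log2 change with DKK1 was 0.14, -0.099, -0.085 and 0.077. Changes with DKK1 of the 10 members described, and changes between the precursor cells of all 30, that did not pass the test changed sign as follows, the cause not being tested except as the sums and the missing block show. With DKK1, Srsf4 had 0.25 when summed with exon-sharing models. With 1 library left out the changes with DKK1 that turned were 0.059 and 0.18 (Hnrnpa0), -0.33 and -0.25 (Hnrnpab), -0.082 (Hnrnpf), 0.0089 and 0.087 (Hnrnpl), 0.0053 (Srsf5) and 0.18 and 0.23 (Srsf6), and between the precursor cells 0.086 (Hnrnpu), -0.012 (Hnrnpul2), -0.0024 and -0.022 (Srsf11), 0.027 (Srsf4) and 0.036 (Srsf5). Of the other 20 members, 6 to 9 changed sign with DKK1 with 1 library left out and 1 to 3 under each other alternative. Upper-quartile scaling gave -0.0086 for Hnrnpul2 and -0.016 for Srsf11 between the precursor cells. Calls in the partner lists between the precursor cells went from 17 to 10 (core snRNP proteins), 7 to 2 (splice-site and SR-related), 12 to 4 (kinases to importins), 13 to 6 (other regulators) and 7 to 3 (nonsense-mediated decay) with no filter, and by DESeq2 to 3 for the second and 6 for the third of these lists. Over all genes, 9 calls with DKK1 became 46 by DESeq2, 5 with upper-quartile scaling, 2 by limma-voom and 0 with no filter, and 5913 calls between the precursor cells became 3509 with no filter and 3194 to 4574 with 1 library left out. With 2 mice and no repeat of a preparation, the intervals describe these libraries, and whole-gene counts show no exon use.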
